A study of Mus musculus with 4 samples.

Results

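Cholesterol and fatty acid synthesis was described through 31 genes, chosen by name as SREBP and LXR targets and regulators of sterol and fatty acid synthesis. All 31 were among the 25239 genes of the deposited table, and all 31 reached 10 counts in 2 or more libraries, as 11689 genes did, which are the genes tested. The samples were NKT cells sorted from the small intestinal lamina propria (SI-LP) of adult WT C57BL/6Jax mice, in 4 RNA-seq libraries of 1 condition with no treatment under comparison. The labels assign replicates 3 and 4 to the first of 2 experiments and replicates 1 and 2 to the second. The mice had received an anti-ARTC2 nanobody, given to protect T cells during isolation, shortly before tissue was taken, and cells were sorted as live TCRβ+ cells that bound the PBS57-loaded CD1d tetramer and lacked B220, CD11b, CD11c and CD8. Whether a library pooled several mice is not stated in the sources used here, and other tissues were not analysed here. The values therefore describe expression and its spread in bulk libraries of sorted SI-LP NKT cells. These libraries also held RNA of epithelial markers and of plasma cell and B cell markers, given below.

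NKT cells recognize lipid antigens bound to CD1d through their T cell receptor. In animal cells cholesterol can be built from acetyl-CoA through mevalonate, squalene and lanosterol, and fatty acids from the same acetyl-CoA through malonyl-CoA. SREBP proteins switch on the genes of both routes when the membrane of the endoplasmic reticulum is poor in sterol, SCAP escorts them to the Golgi for cleavage and INSIG proteins hold them back. LXR receptors answer to oxidized sterols and switch on cholesterol export, and in T cells the balance of both systems is known to change with activation and division.

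Total counts per library were between 3882803 and 8732858, so that 3 counts, the level under which a gene was taken as not detectable, correspond to 0.287 to 0.753 CPM. *Rn45s*, the ribosomal RNA precursor, took 7.36% to 28.1% of counts, and CPM values were therefore scaled with TMM factors. Markers of T cells took 0.128% to 0.372% of counts, with 7 of 7 detected in every library. Epithelial markers took 0.105%, 1.11%, 0.0231% and 3.03% in replicates 1 to 4, and 0 of these 21 genes were at 0 in any library. *Lyz1* had 84299 counts in replicate 4 and 3534 in replicate 2, so the larger share of replicate 4 over replicate 2 rests on this gene. Of the 21 genes, 18 were higher both in replicate 4 than 3 and in replicate 2 than 1. Plasma cell and B cell markers took 0.660%, 0.845%, 0.0114% and 0.0387%, and proliferation markers 0.0290%, 0.102%, 0.0256% and 0.0973%. Myeloid, adipocyte and stromal or endothelial markers took at most 0.0194% each. Epithelial and proliferation markers were thus higher in replicates 2 and 4, T cell markers in replicates 1 and 3, and plasma cell and B cell markers in the second experiment. The T cell marker *Cd3e* was at 1835, 616, 2085 and 855 CPM in replicates 1 to 4. The epithelial marker *Muc2* was at 90.3, 2230, 33.7 and 1329 CPM, and the plasma cell marker *Jchain* at 6099, 6383, 2.46 and 196 CPM. How RNA of other cell types came into libraries of sorted NKT cells was not tested. The part of these shares in the values below was not tested, and in bulk RNA a change in the number of cells of a type cannot be told apart from a change in the RNA per cell.

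RefSeq promoter windows of GRCm38.p6, from 250 bases before the start site to 50 bases after it, were found for 25 of the 31 genes. They were searched on both strands for TCACNCCAC, a sterol regulatory element that SREBP proteins bind, TCACGTGA, an E-box they also bind, CCAAT, the letters read by NF-Y, which works together with SREBP, and the LXR DR4 element, a direct repeat of AGGTCA. The distal parts of 3 windows are shown because they hold the single sterol regulatory element match (*Hmgcs1*), belong to the gene with the highest mean TPM of the list (*Insig1*) or belong to an LXR target without a match (*Abca1*). They run from base -250 to -101 before the start site, 5′ to 3′ on the strand of the gene, and capitals mark TCACNCCAC and CCAAT in either orientation. Their positions are chr13:119690101-119690250 on the plus strand, chr5:28071162-28071311 on the plus strand and chr4:53159996-53160145 on the minus strand, in that order.
Hmgcs1: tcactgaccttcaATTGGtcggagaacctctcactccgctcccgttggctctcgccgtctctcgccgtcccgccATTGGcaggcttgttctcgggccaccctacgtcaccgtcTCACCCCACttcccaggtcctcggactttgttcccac
Insig1: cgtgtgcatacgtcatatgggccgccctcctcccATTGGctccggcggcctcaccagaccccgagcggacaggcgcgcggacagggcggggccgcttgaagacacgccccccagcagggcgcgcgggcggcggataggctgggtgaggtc
Abca1: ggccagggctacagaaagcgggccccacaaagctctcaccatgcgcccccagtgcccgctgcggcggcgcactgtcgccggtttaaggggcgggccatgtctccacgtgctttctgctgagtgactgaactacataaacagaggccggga
On GRCm38 the genes themselves span chr13:119690351-119708260, chr5:28071412-28078662 and chr4:53030789-53159895. The *Hmgcs1* stretch holds TCACCCCAC with its first base at -137, and CCAAT on the opposite strand at -237 and -176. In *Insig1* CCAAT lies on the opposite strand at -216. CCAAT was found in 19 of the 25 genes (76.0%), against 42.8% of 9313 tested genes and 41.1% of all 27025 genes with a window. It was found in 5 of 5 mevalonate genes, 7 of 7 squalene and sterol genes, 4 of 5 regulators, 2 of 4 fatty acid genes and 1 of 4 genes of the LXR group. Genes with several start sites have more than 1 window, and among genes with exactly 1 window the shares were 15 of 19 (78.9%) against 39.5% of 7460 tested genes. TCACNCCAC was found in 1 of the 25 genes (4.00%), against 1.33% of tested genes. TCACGTGA was found in 0 of 25 against 2.21%, and DR4 in 0 of 25 against 4 of all 27025 genes. The exact DR4 repeat was too rare over all genes for 0 of 25 to say anything on the list. These matches are descriptions of exact letters within the windows. No match says nothing on sites outside the windows, or on sites inside them that differ by some letters.

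The first steps of the sterol route, from acetyl-CoA to farnesyl pyrophosphate, were all expressed. *Hmgcs1*, which makes the precursor of mevalonate, was at 96.7, 204, 84.2 and 87.6 CPM in replicates 1 to 4, with a mean of 118 ± 57.6 (SD, n = 4). Replicate 2 stood above the other 3 libraries, which lay close together. *Fdps*, which makes farnesyl pyrophosphate, was the most even gene of the list, at 31.04, 30.1, 30.4 and 34.9 CPM and with a mean of 31.6 ± 2.23 (SD, n = 4). *Idi1*, which isomerizes the isoprene unit, was nearly as even, at 64.01, 55.3, 50.002 and 63.7 CPM. The highest library exceeded the lowest 1.16 times for *Fdps* and 1.28 times for *Idi1*.
The kinases and the decarboxylase between them were less even. *Mvk*, mevalonate kinase, was at 38.2, 12.8, 98.7 and 29.9 CPM and so 7.69 times higher in replicate 3 than in replicate 2. *Pmvk*, the kinase of the next step, was at 13.3, 7.66, 29.02 and 24.8 CPM and also highest in replicate 3. *Mvd*, the decarboxylase that ends this series of steps, was at 7.76, 37.4, 25.4 and 8.53 CPM, with replicates 2 and 3 high and replicates 1 and 4 low.

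From squalene on, 8 of 9 genes lay above the median of tested genes by their mean percentile of TPM, a level per gene length. *Cyp51*, which demethylates lanosterol, was the highest of them at 428, 232, 317 and 244 CPM, with a mean of 305 ± 90.3 (SD, n = 4). *Sqle*, squalene epoxidase, was at 61.2, 105, 47.5 and 157 CPM and higher in replicates 2 and 4 than in 1 and 3. *Sc5d*, a desaturase near the end of the route, was among the most even at 85.2, 77.3, 110.05 and 89.6 CPM. Their mean percentiles by TPM among the genes tested were 93.2 for *Cyp51*, 87.6 for *Sc5d* and 82.2 for *Sqle*.
*Fdft1*, squalene synthase, was at 85.9, 126, 70.1 and 60.5 CPM. *Msmo1*, a sterol methyl oxidase, was at 50.4, 48.5, 54.2 and 97.1 CPM and stood apart only in replicate 4. *Nsdhl*, a dehydrogenase that acts with it, was at 57.9, 90.3, 21.2 and 45.4 CPM and lowest in replicate 3. For *Fdft1*, 20.9% of exon bases overlap exons of *Ctsb* on the other strand, and for *Lss* 6.02% overlap another gene, so that their counts are uncertain, since counting used no strand.
*Lss*, which closes the sterol rings, was at 51.5, 52.5, 24.8 and 49.7 CPM and the lowest of the 9 by TPM, with a mean percentile of 48.2. *Hsd17b7*, a ketoreductase of the same route, was at 30.6, 48.9, 40.6 and 46.9 CPM. *Dhcr7*, which makes cholesterol from its last precursor, was at 45.3, 46.7, 71.7 and 46.4 CPM and stood apart only in replicate 3. Single genes thus differed in which library was highest, while the 15 sterol synthesis genes summed to 1147, 1175, 1075 and 1086 CPM, a highest-to-lowest ratio of 1.09. This sum uses TMM factors and was not computed under other scalings. For the total of all 31 genes, library size alone raised that ratio from 1.05 to 1.48, while median-of-ratios factors gave 1.08.

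**Figure D1:**
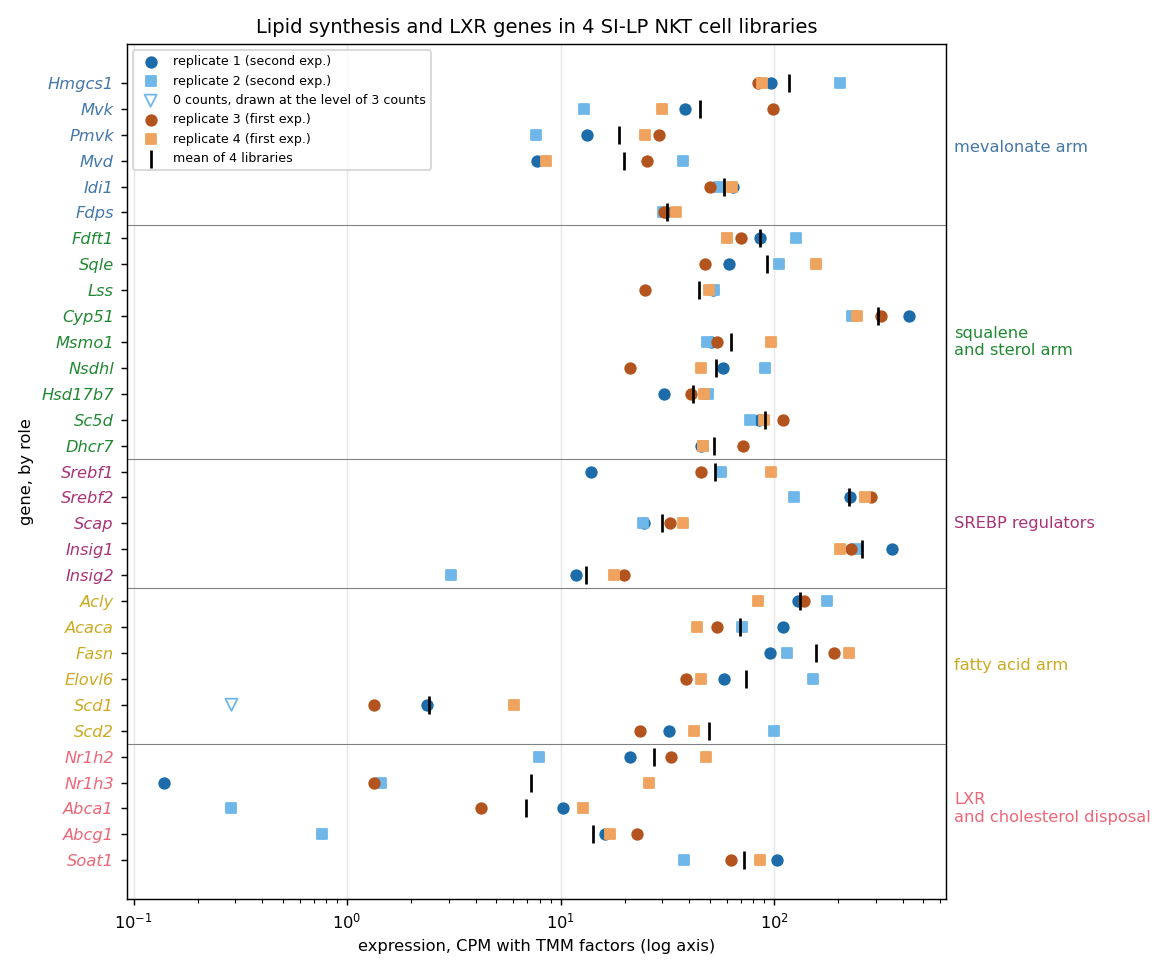
Expression of each of the 31 genes in CPM with TMM factors, on a log axis, in replicates 1 to 4, with the mean of the 4 libraries as a bar. Of the 15 sterol synthesis genes 9 differ at least 2 times between their highest and lowest library, and *Nr1h3*, *Abca1*, *Abcg1* and *Scd1* spread most widely, where *Scd1* had 0 counts in replicate 2 and is drawn there at the level of 3 counts.

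Regulators of SREBP processing held the gene with the highest level per length of the list. *Insig1*, which retains the SREBP and SCAP complex and is itself switched on by SREBP, was at 359, 243, 229.9 and 204 CPM, with a mean of 259 ± 68.4 (SD, n = 4). It had the highest mean TPM of the 31 genes, 273 ± 97.1 (SD, n = 4), and a mean percentile of 95.5. *Insig2*, its relative, was at 11.8, 3.06, 19.9 and 17.8 CPM and lowest in replicate 2. The TPM ratio of *Insig1* to *Insig2* was 33.97, 88.4, 12.9 and 12.8 in replicates 1 to 4, so *Insig1* was the higher one in 4 of 4 libraries.
*Srebf2*, the factor mainly of the sterol genes, was at 227, 124, 284 and 266 CPM and lower in replicate 2 than in the other 3 libraries. *Srebf1*, the factor mainly of the fatty acid genes, was at 13.9, 56.4, 45.3 and 96.6 CPM and 6.97 times higher in replicate 4 than in replicate 1, with 2.48% of its exon bases shared with *Rai1* on the other strand. Their TPM ratio was 16.2, 2.18, 6.21 and 2.73, again above 1 in 4 of 4 libraries. It was smaller in replicates 2 and 4, the libraries in which epithelial markers took 1.11% and 3.03% of counts, than in replicates 1 and 3, with 0.105% and 0.0231%. The part of epithelial RNA in this difference was not tested. *Scap* was at 24.7, 24.2, 32.6 and 37.4 CPM and among the even genes.

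Genes of the fatty acid route were expressed at unequal levels. *Fasn*, fatty acid synthase, was at 95.5, 115, 192 and 226 CPM, with both libraries of the first experiment above both of the second. *Acly*, which makes cytosolic acetyl-CoA, was at 129.5, 178, 139 and 84.1 CPM, and *Acaca*, which makes malonyl-CoA, at 109.9, 70.95, 54.2 and 43.4 CPM. Per length, *Acly* was the higher one in 4 of 4 libraries, with TPM ratios of 2.41, 5.11, 5.21 and 3.95. *Elovl6*, an elongase, was at 58.2, 153, 38.8 and 45.7 CPM, and replicate 2 stood above the others.
The desaturases differed most. *Scd2* was at 32.3, 99.9, 23.4 and 42.4 CPM, again highest in replicate 2. *Scd1* had 17, 0, 6 and 24 counts, or 2.36, 0, 1.34 and 6.02 CPM, and was the lowest gene of the list by mean TPM, with a mean percentile of 10.2. Against the level of 3 counts in replicate 2, *Scd1* was at least 20.96-fold higher in replicate 4. The TPM ratio of *Scd2* to *Scd1* was 12.2, 15.5 and 6.25 in replicates 1, 3 and 4 and at least 309 in replicate 2.

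LXR genes and the genes of cholesterol disposal were the lowest and the least even group. Only 2 of its 5 genes had at least 10 counts in all 4 libraries, against 15 of 15 sterol synthesis genes. *Nr1h2*, which encodes LXRβ, was at 21.1, 7.95, 33.04 and 47.9 CPM. *Nr1h3*, which encodes LXRα, had 1, 15, 6 and 104 counts, or 0.139, 1.44, 1.34 and 26.1 CPM. Replicate 4 alone held most of its counts, so that the mean was 7.25 CPM with it and 0.971 CPM without it, and the ratio of replicate 4 to replicate 1 was 188 with an exact 95% interval from 33.1 to 7509, which covers counting error only. The TPM ratio of *Nr1h2* to *Nr1h3* was 153, 5.57, 24.8 and 1.85, and the first of these rests on 1 count, with an interval from 27.1 to 6085.
*Abca1* and *Abcg1*, the sterol exporters that LXR switches on, were low in replicate 2. *Abca1* had 74, 3, 19 and 51 counts, or 10.3, 0.287, 4.24 and 12.8 CPM, a ratio of 44.5 between replicates 4 and 2 with an interval from 14.4 to 223. *Abcg1* had 117, 8, 102 and 68 counts, or 16.2, 0.766, 22.8 and 17.1 CPM. *Abcg1* was the higher of the 2 per length, with TPM ratios of 2.79, 4.70, 9.47 and 2.35, of which the second rests on 3 counts of *Abca1* and has an interval from 1.13 to 27.5. *Soat1*, which stores cholesterol as esters, was the highest of the group at 103, 38.01, 62.9 and 86.3 CPM. Summed over the 5 genes the level was 150.5, 48.5, 124 and 190.2 CPM, a highest-to-lowest ratio of 3.93.

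**Figure D2:**
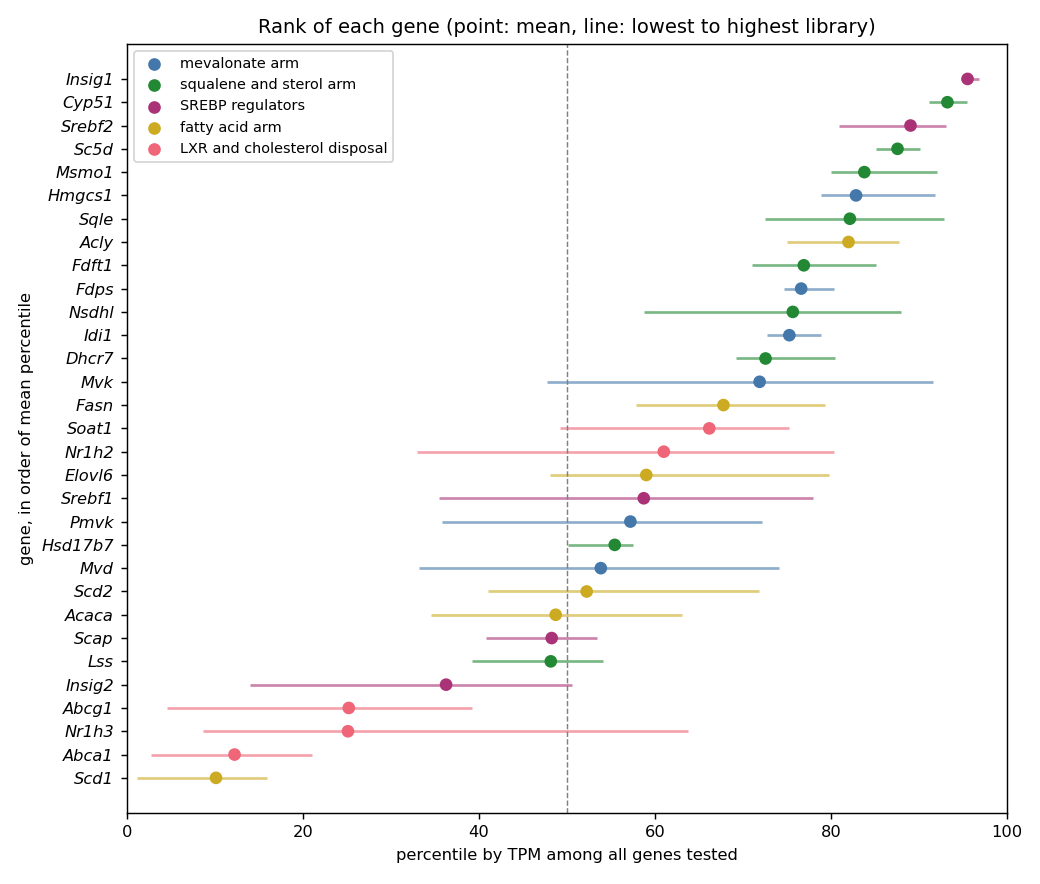
Percentile of each gene by TPM among the 11689 genes tested, where the point is the mean of the 4 libraries, the line runs from the lowest to the highest library and colors mark the role. *Insig1* and *Cyp51* lie above the 90th percentile, and *Abca1* and *Scd1* lie lowest.

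Ranked by TPM among the genes tested, the list had a median percentile of 66.2, with 23 of 31 genes above the median gene, 12 above the 75th percentile and 2 above the 90th. The median was 73.6 for the mevalonate genes, 76.9 for the squalene and sterol genes, 58.8 for the regulators, 55.7 for the fatty acid genes and 25.2 for the LXR group. Within single libraries the median over the 31 genes was 63.1, 69.3, 71.4 and 72.4. In the order of mean TPM the first 7 genes were *Insig1* (273), *Cyp51* (194), *Srebf2* (132), *Sc5d* (110), *Hmgcs1* (93.8), *Sqle* (92.1) and *Msmo1* (91.3). Of the 30 pairs of neighbors in this order, 29 had overlapping ranges of TPM over the 4 libraries, and the exception was *Scap* over *Insig2*. TPM carried no TMM factors, so ranges of TPM between libraries also hold differences in composition, such as the share of *Rn45s*. In 3 of these 29, *Insig1* over *Cyp51*, *Abcg1* over *Abca1* and *Abca1* over *Scd1*, the first gene was nevertheless higher in 4 of 4 libraries. The order of the other neighbors changed between libraries.
For the 6 pairs of related genes compared within libraries, the gene named first was higher in 4 of 4 libraries in all 6 pairs. The pairs, named in this order, were chosen with earlier results of these data known. Their shared direction is therefore a description and no independent support. A two-sided exact sign-flip permutation test gave p = 0.125 for each pair, the smallest value 4 libraries allow, and 0.125 after Benjamini-Hochberg adjustment over the 6 pairs, so the design could not pass 0.05. These p-values, like those below, measure only the spread between the 4 samples.

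**Figure D3:**
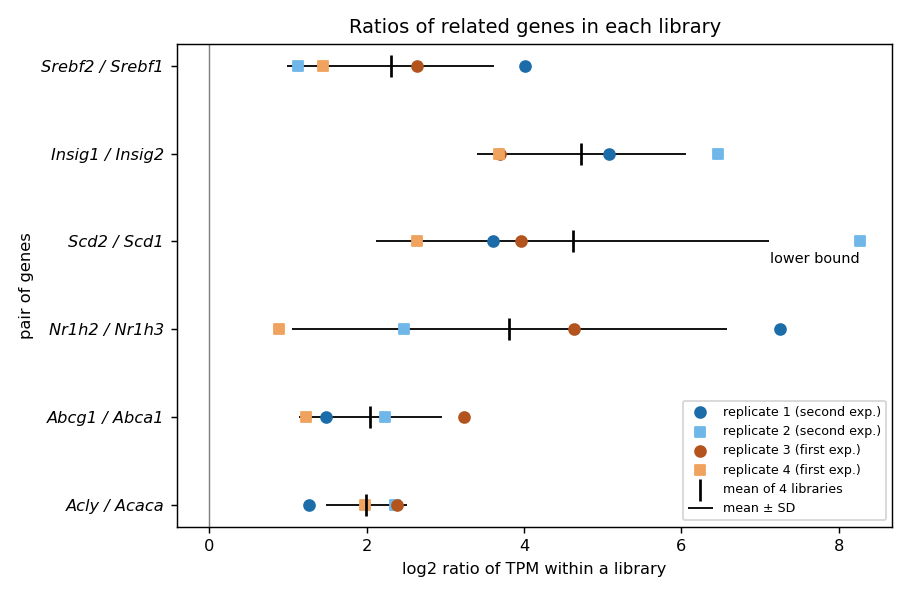
Log2 ratio of TPM of 6 pairs of related genes within each of the 4 libraries, with the mean as a bar and the SD as a line. All log2 ratios lie above 0, and the value of *Scd2* to *Scd1* in replicate 2 is a lower bound computed with 3 counts of *Scd1*.

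The 31 genes together summed to 2361, 2290.5, 2259 and 2345 CPM in replicates 1 to 4, with a mean of 2314 ± 47.4 (SD, n = 4) and a highest-to-lowest ratio of 1.05. This evenness depended on the scaling, since by library size alone the sums were 2356, 2739, 1845 and 2407 CPM and the ratio 1.48. By median-of-ratios factors the ratio was 1.08, and by TMM without *Rn45s* it was 1.07. Gene by gene, the median highest-to-lowest ratio was 2.48 over the 30 genes with no library at 0, against 4.02 over 10018 of the tested genes. Where every library held 10 counts or more, the median over all 8089 was 3.26 and that of the 27 genes of the list 2.36. By role the median was 3.11 for mevalonate genes, 2.00 for squalene and sterol genes, 2.29 for regulators, 2.53 for fatty acid genes without *Scd1* and 29.7 for the LXR group.

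**Figure D4:**
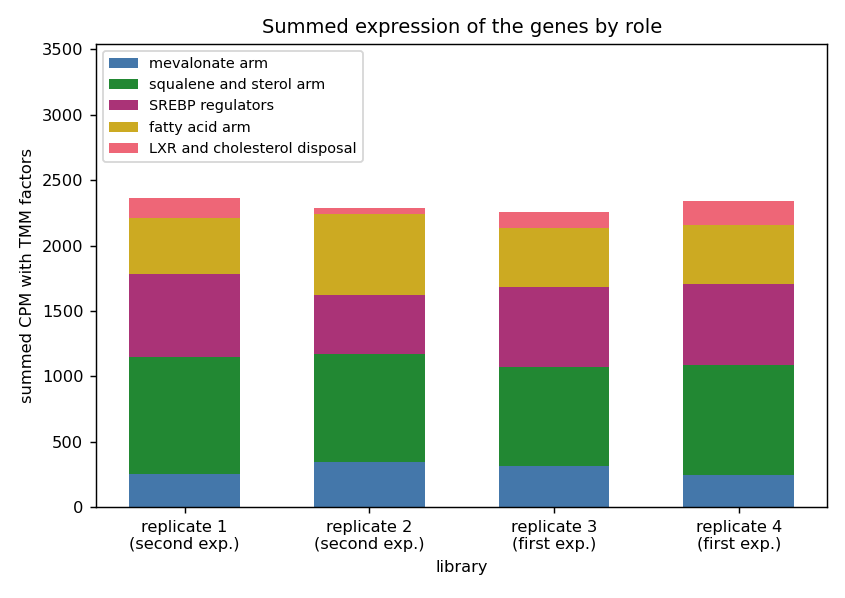
Summed CPM with TMM factors of the 31 genes in each library, stacked by role. The totals lie between 2259 and 2361 CPM, and the LXR group is smallest in replicate 2 at 48.5 CPM.

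The only contrast the labels offer is the second against the first experiment, and with 1 condition it shows only how far replicates differ. With edgeR's quasi-likelihood test 0 of the 31 genes were called at an adjusted p under 0.05, as were 0 of all 11689 genes (0%). At an unadjusted p under 0.05 edgeR called 0 of the 31, against 248 of all genes (2.12%), and the lowest unadjusted p of the list was 0.111. DESeq2 called 0 of the 31 after adjustment, against 41 of all genes, and 1, *Nr1h3*, before it, against 519 of all genes (4.44%). The biological coefficient of variation was 0.976. In CPM both libraries of one experiment lay above both of the other for 16 of the 31 genes, 7 higher in the second experiment and 9 in the first, against 29.1% of all genes tested. This count was made after the values were seen and carries no test, and by library size alone it was 15 of 31, against 31.6%. *Nr1h2*, at -1.48 ± 0.99 (SE), and *Elovl6*, at 1.32 ± 0.73 (SE), had the largest log2 differences of the second minus the first experiment among those 16 in each direction. The median absolute log2 difference was 0.69 over the 31 genes and 0.67 over all genes tested.

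Replicates 4 and 2 held more epithelial and proliferation RNA than replicates 3 and 1 of the same experiments, and the list was set beside that shift, 1 library against 1 and therefore with no test. For replicate 4 minus replicate 3 the median log2 CPM difference of the epithelial markers was 5.81, that of the proliferation markers 3.11 and that of the T cell markers -1.47, beside 0.20 for the list and 0.08 for all genes. For replicate 2 minus replicate 1 the same 5 medians were 3.43, 2.47, -1.18, -0.05 and 0.13. The list's medians were thus near those of all genes in both experiments.
Genes higher by more than 1 log2 unit in both replicate 4 and replicate 2 numbered 2 of 31, *Nr1h3* and *Srebf1*, against 19.0% of all genes tested. For *Nr1h3* the differences were 4.00, from 104 counts against 6, and 1.97, from 15 counts against 1. That 1 count is under the level of 3 counts taken as detectable. For *Srebf1* the differences were 1.09 and 2.00. Lower by as much in both was 1 of 31, *Mvk*, at -1.71 and -1.55, against 8.08% of all genes. Higher by any amount in both were 10 of 31, against 35.2%. *Abca1* and *Scd1* went opposite ways in the 2 experiments, at 1.53 and -4.15 and at 1.94 and -3.12, both on few counts.

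**Figure D5:**
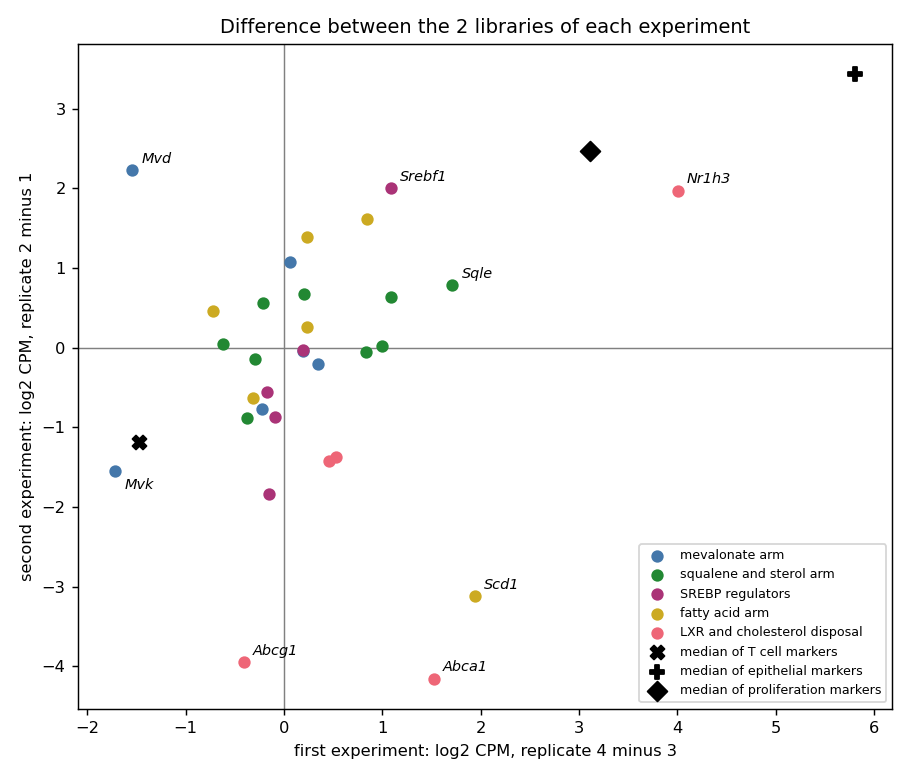
Difference in log2 CPM between replicates 4 and 3 (first experiment) and between replicates 2 and 1 (second experiment) for each of the 31 genes, with the medians of the T cell, epithelial and proliferation markers in black. On at least 1 axis 15 of the 31 genes lie more than 1 from 0, 5 lie within 0.5 of it on both, *Nr1h3* and *Srebf1* lie over 1 on both and *Mvk* lies under -1 on both.

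A wider list of 40 genes of lipid synthesis, transport and SREBP processing was read in the same way. Of these 39 passed the filter, and 0 were called between experiments by edgeR in either direction. The 3 with the highest mean TPM were *Tecr*, the reductase that ends a cycle of fatty acid elongation, at 768 TPM, *Lbr*, a sterol reductase that also anchors chromatin at the nuclear lamina, at 149 TPM, and *Elovl5*, an elongase of polyunsaturated fatty acids, at 139 TPM. *Tecr* was at 257, 502, 226 and 295 CPM, *Lbr* at 209, 185, 233 and 139 CPM and *Elovl5* at 169, 92.98, 249.6 and 55.5 CPM in replicates 1 to 4. *Lbr* was even across libraries, with a highest-to-lowest ratio of 1.68, whereas *Elovl5* was higher in replicates 1 and 3 than in 2 and 4.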

How the data were processed

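RNA-seq of SI-LP NKT cells was analysed in 4 libraries of 1 condition. The authors deposited raw counts per gene, made by aligning paired reads and counting primary alignments on RefSeq exons with featureCounts 1.6.4, without strand. They also deposited gene lengths, an annotation value of unit other, used for TPM. TPM was computed over all genes of the deposited table, *Rn45s* included, and without TMM factors. The methods name HISAT2 and GRCm39, but the submitters' processing notes and deposited gene positions are of GRCm38.p6, which was used for coordinates. The labels name a HiSeq and the methods a NovaSeq. Of 6 library columns, 2 match no sample label and were not used. The 31 genes, the marker and wider lists, the 6 pairs, the motifs and the tests were chosen with earlier results of these data known, and the printed promoter stretches after their matches were seen. All 31 genes are named, with the 3 highest genes of the wider list.

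TMM factors of edgeR scaled the counts to CPM (log2 with a prior count of 2). The quasi-likelihood test of edgeR, adjusted by Benjamini-Hochberg over all genes tested, compared the experiments for genes that reached 10 counts in 2 or more libraries. On simulated counts the test recovered changed genes at a low dispersion but not at the dispersion of these libraries. Alternatives were DESeq2, other scalings and filters, CPM for TPM, and leaving out each replicate. Using replicates 1 and 3 alone, and every alternative of the summed level, was chosen after seeing the data. Total counts per library were 7233071, 8732858, 5487147 and 3882803, and intervals are exact Clopper-Pearson intervals that cover counting error only. Whether the replicates came from separate mice is not stated in the sources used here. Statistics ran in edgeR 4.0.16 with limma 3.58.1 and in DESeq2 1.42.0, under R 4.3.3. Tables and figures were made with pandas 2.3.3, numpy 2.4.6, scipy 1.17.1 and matplotlib 3.10.9, under Python 3.11.15.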

Additional observations from a re-analysis of the deposited data

Results flagged for a closer look

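In 8 of 36 values examined (the 31 genes and the 5 sums by role), 1 library lay far from the other 3, measured as its gap to the nearest library divided by the range of the 4. For normally distributed values chance alone flags about 1 in 20 such groups, or 1.8 of 36, and the sums are not independent of their genes. The values were CPM without a log, for which that rate was not checked, so the 8 cannot be read as an excess. Replicate 2 was the high one for *Hmgcs1* (0.895), *Elovl6* (0.831) and the sum of the fatty acid genes (0.892), and the low one for the sum of the regulators (0.872). Replicate 3 was the high one for *Dhcr7* (0.946) and the low one for *Lss* (0.899). Replicate 4 was the high one for *Msmo1* (0.881) and *Nr1h3* (0.95). Replicates 2 and 4 were also those with the larger shares of epithelial markers, and the part of these shares in the values was not tested.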

How the results depend on the processing

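Of the genes of the list that each fit tested (27 to 31), 0 were called between experiments under any of the 10 alternatives run, although over all genes the calls went from 0 to 41 with DESeq2, 60 without a filter on low counts, 7 without replicate 3 and 6 without replicate 4. The median percentile, 66.2, was 68.8 by CPM and 62.7 among genes whose counts reached 10 in every library. It ranged from 63.7 (without replicate 4) to 70.7 (without replicate 2), and was 66.3 with replicates 1 and 3 alone. The highest-to-lowest ratio of the summed level, 1.05, was 1.08 by median-of-ratios factors and 1.07 by TMM without *Rn45s*, and reached 1.48 by library size alone. The median highest-to-lowest ratio of single genes, 2.48, ran from 1.76 (without replicate 2) to 2.71 (library size alone). The median log2 difference between replicates 4 and 3, 0.20, became 0.52 by library size alone and 1.67 relative to the T cell markers, and that between replicates 2 and 1, -0.05, became 0.21 by library size alone and 1.14 relative to the T cell markers. The mean log2 ratio of *Acly* to *Acaca*, 2.00 by TPM, was 0.97 by CPM, and the directions of all 6 pairs held by CPM. Leaving out replicates could not reverse a direction, since each pair had the same one in 4 of 4 libraries. Under the other scalings mean levels moved by less than 1 SD, apart from 4 of 31 genes with TMM without *Rn45s*. That setting also raised genes counted as unmoved, such as *Cyp51* from 305 to 370 CPM. Leaving out libraries cannot move a mean by 1 SD of the same 4 values, so that measure was fixed in advance there. By fold, leaving out 1 library moved 5 of the 31 mean levels by over 1.5 times. *Nr1h3* went from 7.25 to 0.971 CPM and *Scd1* from 2.43 to 1.23 CPM without replicate 4, *Mvk* from 44.9 to 26.98 CPM without replicate 3, and *Elovl6* from 73.9 to 47.6 CPM and *Scd2* from 49.5 to 32.7 CPM without replicate 2. No paired analysis was possible because the study has a single condition here. The cause of these shifts was not tested.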
